A study of Mus musculus with 20 samples.

Results

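The genes described here copy the genome and divide the cell. They are 45 genes taken as a list of symbols, 28 of S phase and 17 of mitosis, and all 45 were found among the 55335 genes of the files, each at 1 Ensembl identifier. Their transcripts were sequenced in 20 tumours of CT26, an established mouse colon carcinoma line from the BALB/c strain. The labels give 10 tumours the genotype POLE-mutant and 10 the genotype control, from cells with an empty vector. Within each genotype 5 mice received PBS, a salt solution, and 5 received anti-PD-1, an antibody against a receptor that restrains T cells. The 4 groups are called vector PBS, vector anti-PD-1, mutant PBS and mutant anti-PD-1. All 4 share the CT26 line, and no dose, time, age or further allele is given in the sources used here. POLE is the catalytic subunit of DNA polymerase epsilon, whereas the series title names CHEK2, a checkpoint kinase. The labels name no separate clones, so the mutation and any further difference between the 2 cell stocks cannot be told apart. Replicate numbers follow accession order and only name a tumour. The titles carry an identifier with a leading M in 11 tumours and a number alone in 9, and the fit holds a term for this identifier style. A transcript level does not show whether a mutation is present, so the genotype labels were not checked.

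A cell prepares to replicate by loading the MCM helicase onto origins, a step called licensing, which needs the origin recognition complex, CDC6 and CDT1. CDC45 and the GINS complex then turn the loaded rings into active helicases, and primase, the clamp loader and nucleotide-making enzymes sustain the fork. Cyclin E and E2F1 act before this, at the passage from G1 into S phase. Division is driven later by CDK1 with cyclins A and B, by the Aurora and Polo kinases, by a checkpoint that watches the attachment of chromosomes, and by motors that build the spindle. In textbook accounts, S phase genes are read through E2F sites in their promoters, and mitotic genes through a cell cycle homology region (CHR) often paired with CCAAT boxes. In a tumour, transcripts of both kinds come from any dividing cell, whether cancer cell, T cell or other.

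Promoter sequences of 3 S phase and 3 mitotic genes are printed as examples, because each of these genes passed a test below. They do not show a clean contrast between the kinds, since Mcm7 and Gins3 also hold a CHR and Cdk1 holds 2 E2F cores. RefSeq windows (GRCm38.p6) of 300 bases, from 250 before to 50 after the start, matched 36 of the 45 members by symbol, 23 of S phase and 13 of mitosis, with the first listed start used for the 2 members that have several. The E2F core was searched on both strands as the letters TTCCCGC, with the further forms TTGGCGC, also TTCGCGC, and finally TTGCCGC. The CHR was searched likewise as TTTGAA, with the further form TTCGAA, and the CCAAT box by its name letters. A RefSeq start lay at or within 100 bases of the annotated gene start in 30 of the 36 members. Of the stretches printed, that of Mcm7 lies wholly inside the annotated gene, and those of Gins3 and Cdk1 reach into it. The 250 bases before the RefSeq start follow, 5′ to 3′ on the strand of the gene, with every match in capitals.
Mcm7 (chr5:138171884-138172133, minus strand): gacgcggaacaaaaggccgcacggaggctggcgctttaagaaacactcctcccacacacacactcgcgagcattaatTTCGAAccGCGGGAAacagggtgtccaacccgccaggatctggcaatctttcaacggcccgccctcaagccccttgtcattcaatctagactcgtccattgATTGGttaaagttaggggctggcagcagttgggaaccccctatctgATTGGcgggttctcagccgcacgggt
Gins3 (chr8:95633309-95633558, plus strand): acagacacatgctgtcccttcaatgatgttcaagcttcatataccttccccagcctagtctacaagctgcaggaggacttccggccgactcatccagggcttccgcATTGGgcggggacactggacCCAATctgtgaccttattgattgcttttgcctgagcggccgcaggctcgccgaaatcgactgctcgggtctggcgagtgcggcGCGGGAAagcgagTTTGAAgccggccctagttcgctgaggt
Rrm1 (chr7:102441445-102441694, plus strand): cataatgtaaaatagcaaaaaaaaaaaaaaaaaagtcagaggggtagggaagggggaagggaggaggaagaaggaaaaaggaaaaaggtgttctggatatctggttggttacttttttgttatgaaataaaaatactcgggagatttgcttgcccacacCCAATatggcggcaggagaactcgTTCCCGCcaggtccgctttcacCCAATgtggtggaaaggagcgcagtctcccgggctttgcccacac
Kif11 (chr19:37376132-37376381, plus strand): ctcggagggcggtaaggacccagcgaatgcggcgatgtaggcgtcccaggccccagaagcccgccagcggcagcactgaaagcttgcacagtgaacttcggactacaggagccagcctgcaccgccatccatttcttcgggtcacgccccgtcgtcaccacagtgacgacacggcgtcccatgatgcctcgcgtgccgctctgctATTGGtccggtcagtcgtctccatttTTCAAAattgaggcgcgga
Ccnb2 (chr9:70421555-70421804, minus strand): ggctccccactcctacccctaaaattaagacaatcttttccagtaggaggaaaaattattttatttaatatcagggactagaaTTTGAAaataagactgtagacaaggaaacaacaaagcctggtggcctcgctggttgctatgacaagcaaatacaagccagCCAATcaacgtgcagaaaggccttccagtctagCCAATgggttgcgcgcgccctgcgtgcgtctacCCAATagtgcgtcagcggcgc
Cdk1 (chr10:69352913-69353162, minus strand): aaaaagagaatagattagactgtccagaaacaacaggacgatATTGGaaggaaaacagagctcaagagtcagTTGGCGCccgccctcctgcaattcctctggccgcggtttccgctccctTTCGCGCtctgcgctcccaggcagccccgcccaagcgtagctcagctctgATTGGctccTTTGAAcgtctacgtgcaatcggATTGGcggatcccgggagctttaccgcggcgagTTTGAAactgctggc
An E2F core lay in the 300 base window of 12 of 23 S phase genes (52.2%), in 3 of 13 mitotic genes (23.1%) and in 9.69% of 27025 promoters of all genes. A CHR lay in 6 of 23 S phase genes (26.1%), in 11 of 13 mitotic genes (84.6%) and in 19.4% of all promoters. Both a CHR and a CCAAT box were present in 5 S phase genes (21.7%), in 11 mitotic genes (84.6%) and in 7.7% of all promoters. E2F and CCAAT matches shared letters in 3 members, Mcm7, Prim1 and Ccnb1. Cdk1 and Mki67 held both an E2F core and a CHR, and so did Mcm7, Gins3 and Rfc3 of S phase, so the letters do not divide the 2 kinds of genes cleanly. A match describes these letters and does not show that a factor binds there.

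**Figure D1:**
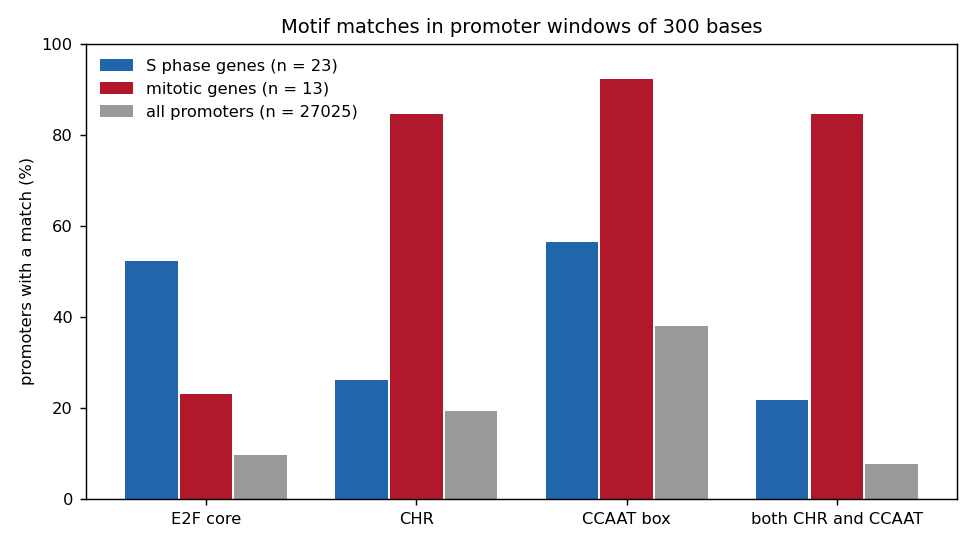
Share of promoters (percent, vertical axis) with at least 1 match to each motif (horizontal axis), for the 23 S phase genes, the 13 mitotic genes and all 27025 promoters. The CHR bar stands at 84.6% for mitotic genes against 26.1% for S phase genes, and the E2F bar at 23.1% against 52.2%.

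Levels are given in FPKM, fragments scaled to transcript length and library size, and compared as log2(FPKM + 1). The depth of the libraries is unknown, so no counting error can be given. All 45 members passed the filter for testing, at least 1 FPKM in at least 5 libraries. Of the 45, 44 reached 1 FPKM in all 20 libraries, and Cdc6 did so in 19. Median levels over the 20 tumours ran from 2.81 FPKM (Orc1, of the origin recognition complex) to 56.7 (Rrm2, the small subunit of ribonucleotide reductase). In 3 libraries the mean Spearman correlation with the other libraries was low, at 0.873 in vector anti-PD-1 replicate 1, 0.874 in mutant anti-PD-1 replicate 1 and 0.889 in mutant anti-PD-1 replicate 2, against 0.906 to 0.913 elsewhere. These are called the 3 outlying libraries, and the main results that rest on them, though not every value, are given with and without them. All 3 have an identifier with a leading M. Replicates 1 and 2 are the only such tumours of the mutant anti-PD-1 group. Of 9 epithelial markers, Epcam, Cdh1, Cdx2, Vil1 and Cldn7 stayed below 1 FPKM in every library, while Krt18 (0.572 to 22.6 FPKM) and Krt20 (4.16 to 93.6 FPKM) were present. These are bulk tumours, so fewer dividing cells and less RNA per cell cannot be told apart.

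Tumour by tumour, the 2 kinds of genes largely ran in parallel, since the 5 tumours with the lowest S phase scores were also the 5 with the lowest mitotic scores. The distance between the 2 kinds differed by group. The S phase score, the mean log2(FPKM + 1) of the 28 genes, averaged 4.09 ± 0.05 (SD, n = 5) for vector PBS and 4.0 ± 0.20 for vector anti-PD-1 tumours, then 4.15 ± 0.21 for mutant PBS and 3.66 ± 0.48 for the treated mutant group. The mitotic score of the 17 genes was 5.05 ± 0.10, 4.82 ± 0.16, 4.72 ± 0.28 and 4.38 ± 0.69 in the same order (SD, n = 5). With all libraries, mutant PBS tumours therefore had the highest mean S phase score of the 4 groups and only the third highest mitotic score. Without the 3 outlying libraries the mean mitotic score was 4.88 ± 0.08 for vector anti-PD-1 (SD, n = 4) and 4.82 ± 0.23 for mutant anti-PD-1 tumours (n = 3). Mutant PBS tumours, at 4.72, were then lowest, though their range of 4.25 to 4.92 overlapped both. Their mean S phase score of 4.15 stayed the highest.

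The mitotic score minus the S phase score of the same tumour was 1.10, 0.83, 0.92, 0.93 and 1.0 in the 5 vector PBS tumours. It was 0.82, 0.98, 0.89, 0.70 and 0.71 in the vector anti-PD-1 tumours and 0.42, 0.62, 0.72, 0.50 and 0.56 in the mutant PBS tumours. Every mutant PBS tumour lay below every vector PBS tumour on this measure, and mutant PBS and vector anti-PD-1 tumours overlapped. In mutant anti-PD-1 tumours it was 0.42, 0.59, 0.81, 0.83 and 0.94, so replicates 1 and 2, both outlying libraries, lay with the mutant PBS tumours and the other 3 lay above all of them. With the 3 outlying libraries left out, the mean difference was 0.86 ± 0.07 (SD, n = 3) for the treated mutant group and 0.56 ± 0.11 in mutant PBS tumours (SD, n = 5). These are descriptions, and the difference between the 2 scores was not tested.

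**Figure D2:**
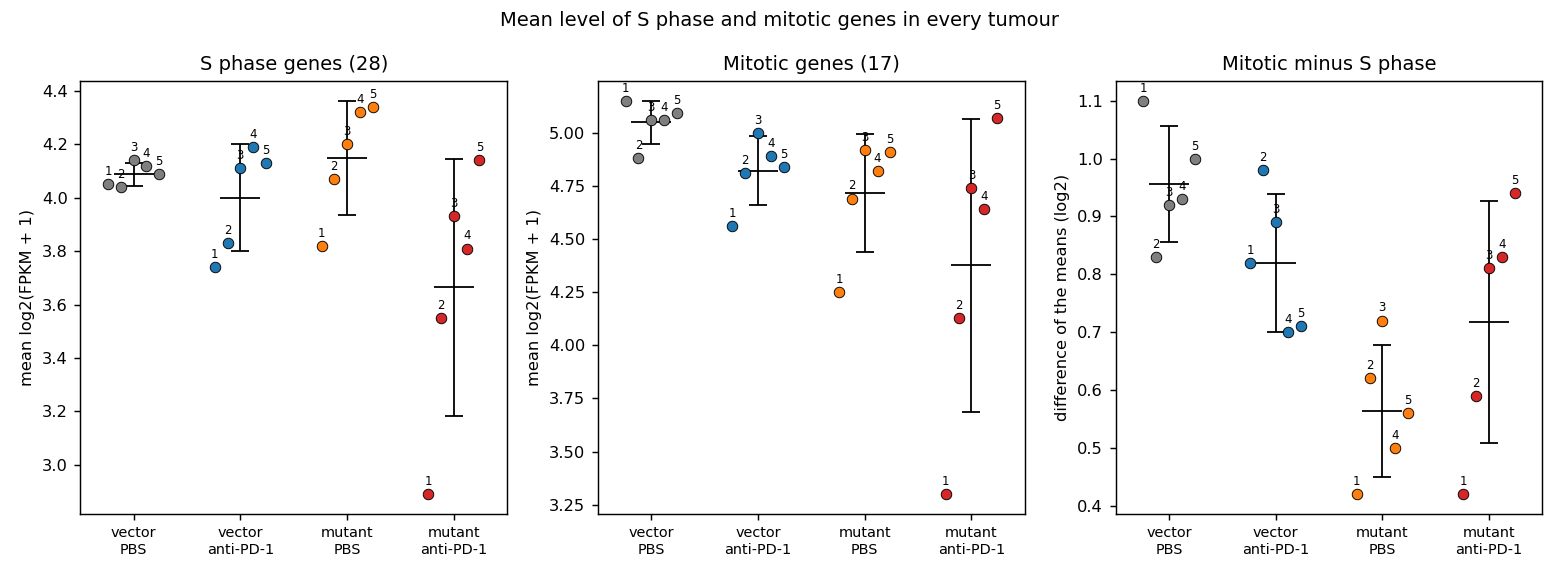
Mean log2(FPKM + 1) of the 28 S phase genes (left) and the 17 mitotic genes (middle) and the mitotic minus the S phase mean (right), with 1 numbered point per tumour, a bar at the mean of 5 and whiskers of 1 SD. On the right the mutant PBS points (0.42 to 0.72) sit below all vector PBS points (0.83 to 1.10), and mutant anti-PD-1 replicate 1 is lowest in the left and middle panels (2.89 and 3.30).

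The first comparison asks how mutant and vector tumours differed without the antibody. None of the 45 members passed the threshold (limma's moderated test, adjusted p under 0.05, adjusted over all 13982 genes tested), against 0.923% of all genes called lower and 0.529% called higher. The direction still differed by kind. All 17 mitotic genes had a negative log2 fold change, with a median of -0.32, while 22 of 28 S phase genes had a positive one, with a median of 0.04. The median over all genes tested was 0.00. The S phase direction turned with identifier style, with 18 of 28 genes negative in M-style tumours (median -0.05) and 26 of 28 positive in number-only tumours (median 0.21). The mitotic medians were -0.40 and -0.19 there. The values of 4 mitotic genes did not overlap between the groups, 4 of 17 against 5.74% of all genes in that direction, and no S phase gene was higher without overlap, against 3.3% of all genes.

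Those 4 genes come from 4 roles. Kif11 (ENSMUSG00000012443, chr19:37376403-37421859, mm10) encodes the motor that pushes spindle poles apart. It measured 20.3, 18.5, 23.7, 20.1 and 19.5 FPKM in vector PBS and 7.31, 12.3, 14.5, 13.7 and 14.7 FPKM in mutant PBS tumours. The groups did not overlap, though the gap between them was smaller than the range of either, and mutant replicate 1 was lowest. The log2 fold change was -0.70 ± 0.261 (SE), with an adjusted p of 0.256 by limma. An exact two-sided permutation test gave p = 0.00794, the smallest that 5 against 5 tumours can give. Groups without overlap always give this value, so it adds no support of its own.

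Bub1 (ENSMUSG00000027379, chr2:127801122-127831865), a kinase of the spindle checkpoint, measured 23.5, 24.1, 30.2, 28.3 and 28.6 FPKM in vector PBS and 13.8, 18.5, 20.5, 22.5 and 23.3 FPKM in mutant PBS tumours. The highest mutant tumour lay just under the lowest vector tumour. Ccnb2 (ENSMUSG00000032218, chr9:70407692-70421547), a B-type cyclin that pairs with CDK1, measured 42, 39.7, 37.8, 37.8 and 34.4 FPKM against 20, 28.2, 33.4, 29.3 and 33.7 FPKM, again with replicate 1 of the mutant lowest. Aurkb (ENSMUSG00000020897, chr11:69045647-69051664), a kinase that corrects chromosome attachment, measured 21.4, 18.4, 17.4, 17.1 and 19.1 FPKM against 10.1, 13.8, 16.2, 16.5 and 15.6 FPKM. The log2 fold changes were -0.45 for Bub1, -0.41 for Ccnb2 and -0.37 for Aurkb, with adjusted p of 0.49, 0.324 and 0.558 by limma.

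In the other mitotic genes the groups overlapped. Plk1, a kinase of mitotic entry, and Bub1b, a checkpoint kinase, had log2 fold changes of -0.44 and -0.41, and Mki67, which coats mitotic chromosomes and is the usual marker of dividing cells, had the smallest difference of the 17 at -0.07. Mki67 measured 44.8, 45.5, 51.8, 53.5 and 54.1 FPKM in vector PBS and 34.7, 43, 54.7, 53.7 and 53.9 FPKM in mutant PBS tumours, so the upper ends were alike while mutant replicates 1 and 2 lay below every vector tumour. Replicate 1 of mutant PBS had a mitotic score of 4.25 against 4.69 to 4.92 in the other 4.

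Among S phase genes, all 3 genes of the passage from G1 were higher in mutant PBS tumours, short of the threshold. Ccne2 (ENSMUSG00000028212, chr4:11191351-11204779), a cyclin E, measured 10.7, 13.7, 18, 15.4 and 18.2 FPKM in vector PBS and 19.4, 19.3, 17, 23.2 and 24.2 FPKM in mutant PBS tumours. Only mutant replicate 3 fell within the vector range, and the log2 fold change was 0.43 ± 0.261 (SE) with an adjusted p of 0.637. Licensing genes had a median log2 fold change of 0.02 and helicase activation genes one of 0.04. Tk1, the thymidine kinase that salvages nucleotides, had the most negative value of the 28, -0.46 ± 0.217 (adjusted p = 0.448), and its 5.15 FPKM in mutant PBS replicate 1 was far below the 10.1 to 11.6 FPKM of the other 4.

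None of the 3 outlying libraries is in this comparison, but they enter the spread that all groups share in the fit. In the fit without them 7 members passed. Kif11 (-0.70, adjusted p = 0.00882), Bub1 (-0.45, 0.0184), Cdc20 (-0.39, 0.0326), Bub1b (-0.41, 0.0385) and Ccnb2 (-0.41, 0.0468) fell, and Ccne2 (0.43, 0.0148) and Cdt1 (0.34, 0.0276), the licensing factor, rose. The background is then 6.87% of all genes lower and 4.88% higher. T cell, macrophage, fibroblast and endothelial marker lists had no gene past the threshold in the fit with all 20 libraries. All 7 fibroblast markers were negative (median -0.62) and all 9 T cell markers positive (median 0.54). The summed T cell level was 1.19 to 3.18 FPKM in vector PBS and 1.5 to 37.4 FPKM in mutant PBS tumours. All 12 muscle markers had positive fold changes, none past the threshold, and their summed level was 46.4 to 56 FPKM against 45.7 to 1252 FPKM. The part of these other cells in the result was not tested.

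**Figure D3:**
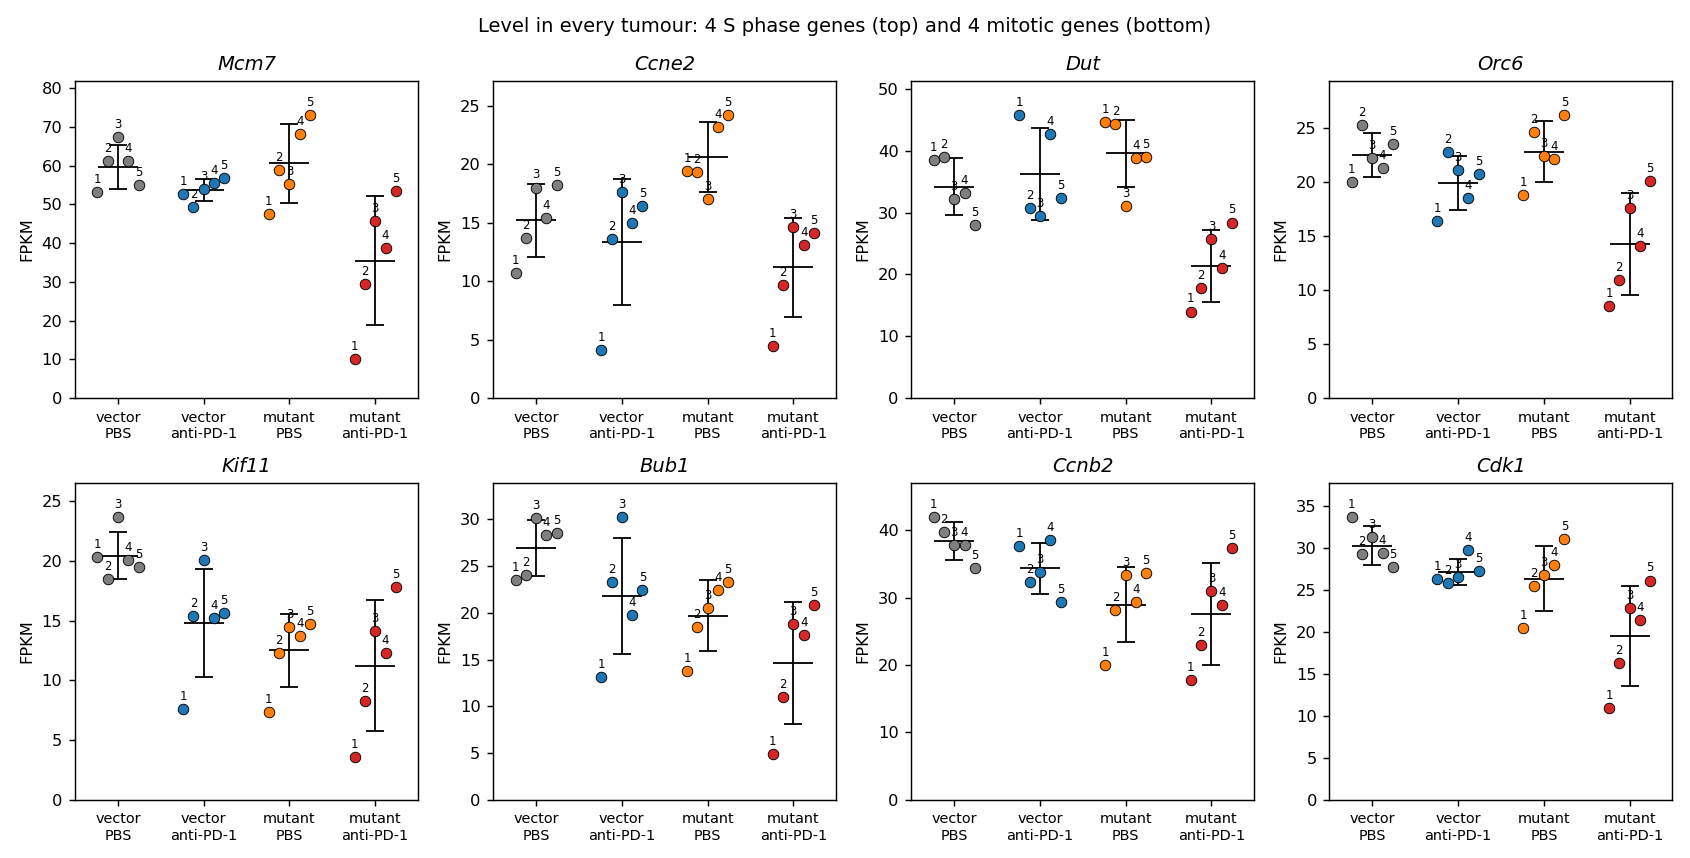
FPKM (vertical axes from 0) of Mcm7, Ccne2, Dut and Orc6 (S phase, top) and Kif11, Bub1, Ccnb2 and Cdk1 (mitosis, bottom) in the 4 groups, with 1 numbered point per tumour, a bar at the mean of 5 and whiskers of 1 SD. Kif11, Bub1 and Ccnb2 separate mutant PBS from vector PBS tumours, and Dut and Ccne2 separate mutant anti-PD-1 from mutant PBS tumours.

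The second comparison asks what anti-PD-1 did in vector tumours. No gene of the 13982 was called lower (0%) or higher by limma, and 426 had an unadjusted p under 0.05. The S phase genes had a median log2 fold change of -0.14 and the mitotic genes one of -0.26, beside -0.08 for all genes. Without the 3 outlying libraries these medians were -0.06 and -0.18, beside 0.00 for all genes. Fen1, the nuclease that trims Okazaki fragments, had the largest change of the 45, at 0.76. It measured 10.1, 6.99, 12.3, 7.35 and 6.87 FPKM in vector PBS and 28.1, 7.1, 18.7, 9.49 and 21.4 FPKM in vector anti-PD-1 tumours. Replicate 1, the highest, is an outlying library. Kif11, the mitotic gene with the smallest p (-0.50), measured 7.56, 15.4, 20.1, 15.2 and 15.6 FPKM in vector anti-PD-1 tumours. For both genes the groups overlapped. Tpx2, which activates Aurora A on the spindle, was the single member whose groups did not overlap, against 0.501% of all genes. It measured 37.2, 37.3, 37, 37.9 and 37.3 FPKM in vector PBS and 18.4, 30.7, 36.6, 32.9 and 32.2 FPKM in vector anti-PD-1 tumours, with an adjusted p of 0.724. The vector PBS tumours lay within 1 FPKM of each other, so that replicate 3, at 36.6, was below them by less than 1 FPKM. In vector anti-PD-1 replicate 1, an outlying library, the members diverged by transcript length. Its 22 members with the longest transcripts deviated from the median of the other tumours of the group by a median of -0.76 on the log2 scale, and its 23 shorter ones by -0.05. Its total FPKM was 566913 against a median of 355875, and its mitochondrial share of 2.85% was the lowest of the 20. The part of transcript length in the difference was not tested.

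The third comparison is anti-PD-1 against PBS in mutant tumours, and here most S phase genes fell. Of the 28 S phase genes 17 passed the threshold, all lower, and of the 17 mitotic genes 2 passed, both lower, against 14.6% of all genes called lower. The median log2 fold change was -0.58 for S phase and -0.45 for mitotic genes, beside -0.10 for all genes. Whether the 2 kinds of genes differed in this response was not tested. This comparison shares its mutant PBS tumours with the first one, so a high level there enters both.

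In licensing, 3 of 9 genes fell. Mcm7 (ENSMUSG00000029730, chr5:138164583-138172422), a subunit of the replicative helicase, measured 47.6, 58.9, 55.3, 68.3 and 73.1 FPKM in mutant PBS and 10.2, 29.5, 45.6, 38.7 and 53.4 FPKM in mutant anti-PD-1 tumours. Replicate 1 of the treated group was far lower than the rest, and only replicate 5 reached the untreated range. The log2 fold change was -1.01 ± 0.257 (SE, adjusted p = 0.00662). Orc6 (ENSMUSG00000031697, chr8:85299632-85308278), a subunit of the origin recognition complex, measured 18.8, 24.6, 22.4, 22.1 and 26.2 FPKM against 8.5, 10.9, 17.6, 14.1 and 20.1 FPKM. Its log2 fold change was -0.74 ± 0.157 (adjusted p = 0.00179), with overlap at 1 treated tumour. Mcm2, another helicase subunit, measured 19.4, 23.4, 23.1, 27.2 and 26.5 FPKM against 5.7, 13.4, 18.4, 17.4 and 23 FPKM, with treated replicate 5 alone in the untreated range. It fell by 0.78 on the log2 scale (adjusted p = 0.0124), and Mcm3, Mcm4 and Mcm5 had values of -0.55, -0.54 and -0.54 that did not pass. Mcm5 measured 24.7, 35.8, 40.6, 44.7 and 45.1 FPKM against 11.6, 25.7, 33.9, 31.4 and 45.9 FPKM, so treated replicate 5 was the highest of the 10. Cdc6, which helps load the helicase, measured 4.38, 6.2, 6.9, 6.88 and 8.62 FPKM against 2.19, 3.27, 5.18, 4.77 and 6.73 FPKM and did not pass (-0.62, adjusted p = 0.0792). The 3 upper treated tumours lay in the untreated range. Cdt1 did not pass either (adjusted p = 0.0708), although its 10.6, 9.98, 10.9, 12.2 and 11.7 FPKM did not overlap with 3.86, 6.81, 8.74, 9.28 and 9.64 FPKM.

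In helicase activation, 5 of 6 genes fell. Gins3 (ENSMUSG00000031669, chr8:95633453-95645060), of the GINS complex, had the smallest p of all members. It measured 6.53, 6.12, 6.62, 7.12 and 7.95 FPKM in mutant PBS and 3.21, 3.91, 4.77, 5.65 and 6.47 FPKM in mutant anti-PD-1 tumours, with treated replicate 5 alone inside the untreated range. The log2 fold change was -0.52 ± 0.108 (adjusted p = 0.00145). Gins2, Gins4, Mcm10 and Cdc45 fell by 0.33, 0.42, 0.63 and 0.67, and Gins1 had a value of -0.26 that did not pass.

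In nucleotide supply 4 of 5 genes fell. Dut (ENSMUSG00000027203, chr2:125247190-125258608), the enzyme that keeps uracil out of DNA by breaking down dUTP, measured 44.6, 44.3, 31.1, 38.9 and 39 FPKM in mutant PBS and 14, 17.8, 25.7, 21.1 and 28.4 FPKM in mutant anti-PD-1 tumours. No treated tumour reached the lowest untreated one. The log2 fold change was -0.89 ± 0.182 (adjusted p = 0.00146). The exact permutation test gave p = 0.00794, a value that the lack of overlap fixes. Rrm2 measured 49.1, 62.7, 65.9, 77.8 and 77 FPKM against 23.1, 42.1, 55.5, 57 and 66.6 FPKM, with the 3 upper treated tumours in the untreated range. It fell by 0.59 on the log2 scale (adjusted p = 0.02). Rrm1, the large subunit of the same reductase, measured 16.7, 22.3, 23.2, 26 and 29.7 FPKM against 6.87, 13.6, 20.2, 18.8 and 24 FPKM and fell by 0.65 (adjusted p = 0.0162). Tyms, thymidylate synthase, fell by 0.73 (adjusted p = 0.00792). Tk1 was the single S phase gene with a positive value, 0.11 (adjusted p = 0.739).

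At the fork 2 of 5 genes fell, Prim1, a primase subunit, by 0.72 and Rfc4, of the clamp loader, by 0.66 (adjusted p = 0.0178 and 0.0298). All 3 genes of the passage from G1 fell. Ccne2 measured 19.4, 19.3, 17, 23.2 and 24.2 FPKM in mutant PBS and 4.41, 9.68, 14.6, 13.1 and 14.1 FPKM in mutant anti-PD-1 tumours, without overlap and with replicate 1 lowest. Its log2 fold change of -1.03 ± 0.263 (adjusted p = 0.00686) was the largest of the 45. Ccne1 and E2f1 fell by 0.44 and 0.36 (adjusted p = 0.0467 and 0.0428). Ccne2 passed in 12 of 13 alternative fits and in all 20 fits that leave out a library. Ccne1 passed in 7 and 6 of these and E2f1 in 6 and 10, so their calls depend on the processing. Cdt1, Dut and Ccne2 were thus the S phase genes without overlap, 3 of 28 against 11.8% of all genes in that direction.

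Of the mitotic genes, Cdk1 (ENSMUSG00000019942, chr10:69335146-69352938), the kinase that starts mitosis, measured 20.5, 25.5, 26.7, 27.9 and 31 FPKM in mutant PBS and 10.9, 16.3, 22.8, 21.4 and 26.1 FPKM in mutant anti-PD-1 tumours. It fell by 0.50 on the log2 scale (adjusted p = 0.0234), and the groups overlapped in the 3 highest treated tumours. Bub1 fell by 0.64 (adjusted p = 0.0378). Ccnb1, the other B-type cyclin, measured 16.3, 18.4, 23.1, 23.1 and 21.2 FPKM against 3.55, 11.4, 18.2, 18 and 29.4 FPKM, so replicate 5 of the treated group was higher than every untreated tumour and replicates 1 and 2 were lower than all of them. Top2a, which untangles sister chromosomes, measured 28.9, 48.1, 62.2, 57.5 and 57.8 FPKM against 15.4, 35.1, 60.1, 55.1 and 79 FPKM, with replicates 1 and 5 again at the ends. No mitotic gene was free of overlap. The groups differ here in spread as well as in mean, since the mitotic score ran from 3.30 to 5.07 in treated mutant tumours.

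The 3 outlying libraries weigh on this comparison. In mutant anti-PD-1 replicate 1, 44 of the 45 members were below the median of the other tumours of the group, and in replicate 2 it was 43. Without the 3 libraries 6 S phase genes fell, against 9.96% of all genes called lower: Ccne2 (-0.69), Dut (-0.54), Mcm7 (-0.47), Orc6 (-0.42), Gins3 (-0.36) and Cdt1 (-0.34). No mitotic gene passed, and the medians were -0.27 for S phase and 0.04 for mitotic genes. The number-only tumours also hold none of the 3 libraries. In a fit of these tumours alone 15 S phase genes and 1 mitotic gene fell, with medians of -0.35 and -0.05. The share of all genes called in that fit is not given here. Leaving out mutant anti-PD-1 replicate 1 alone left 7 of the 19 calls in number, and leaving out the identifier style term of the fit left 9.

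Markers of other cells moved with the treatment in the mutant tumours. All 9 T cell markers tested rose, with a summed level of 74.7 to 124 FPKM against 1.5 to 37.4 FPKM, and 8 of 9 macrophage markers rose, with 1396 to 3439 FPKM against 361 to 927 FPKM. All 7 fibroblast markers rose. Their summed level was 2362 and 1499 FPKM in replicates 1 and 2 and 281 to 345 FPKM in the other 3, against 75.1 to 399 FPKM in mutant PBS tumours. Replicates 1 and 2 also had the highest macrophage levels, 3439 and 2915 FPKM, and the lowest S phase and mitotic scores of the 20 tumours. Of 5 endothelial markers 4 rose. The 4 epithelial markers tested were all negative (median -0.87) and 1 fell, with a summed level of 5.97 FPKM in replicate 1, 44.1 FPKM in replicate 2 and 65 to 88.6 FPKM in the other 3, against 61.4 to 110 FPKM in mutant PBS tumours. The summed muscle level was 148 to 1809 FPKM against 45.7 to 1252 FPKM. The part of these cells in the fall of the S phase genes was not tested.

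**Figure D4:**
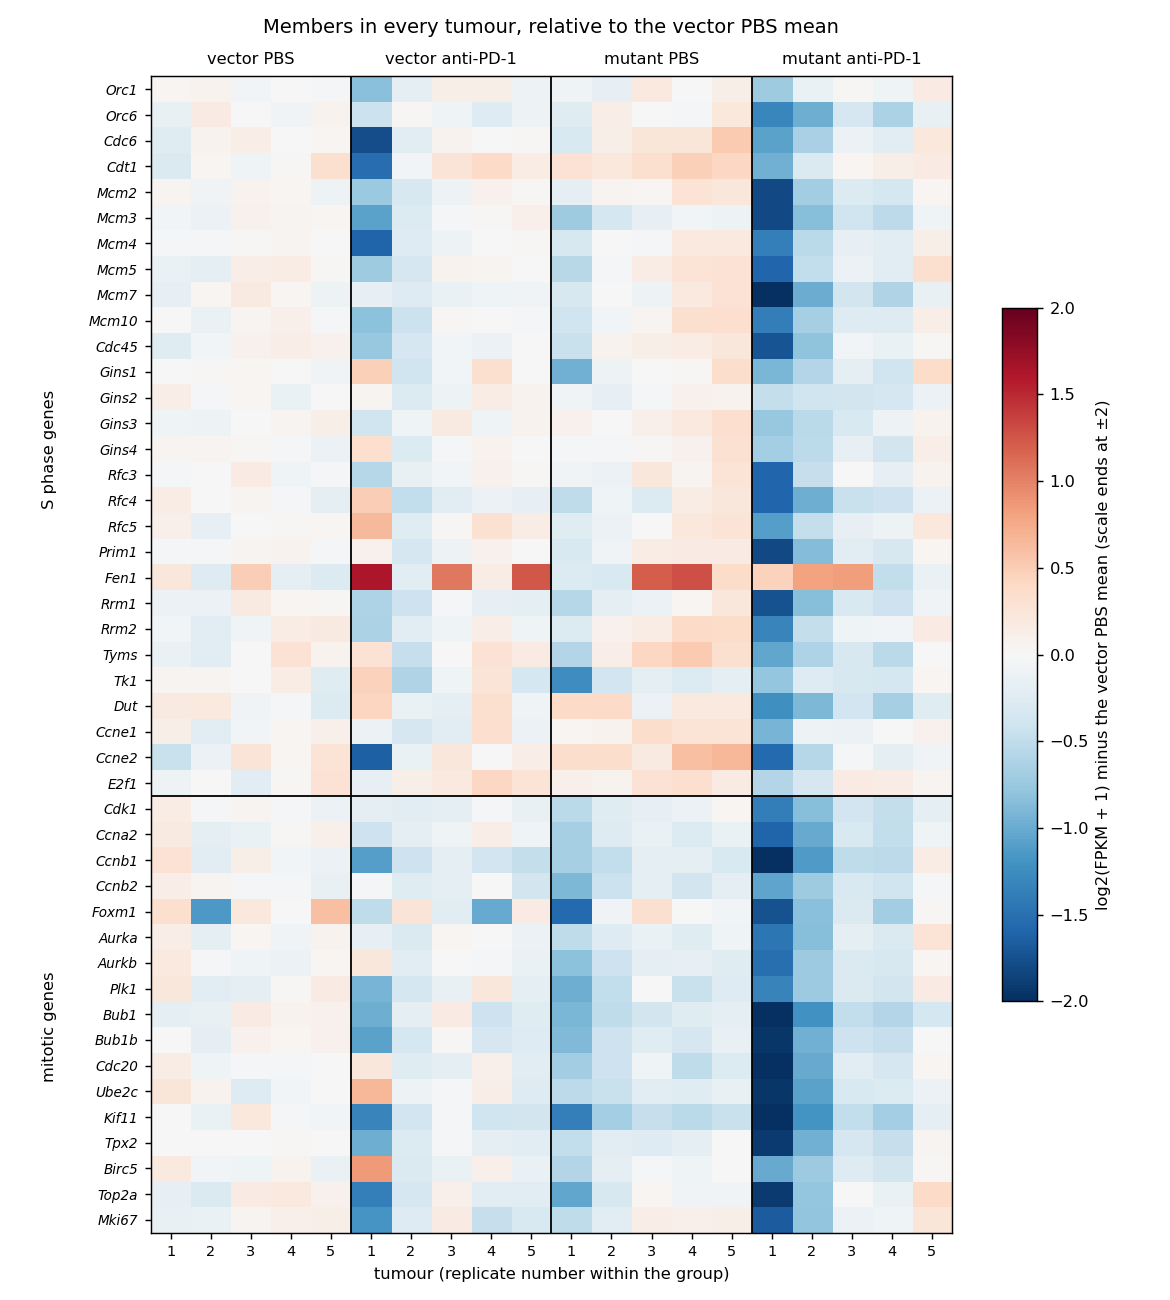
The 45 members (rows, S phase above the line and mitosis below) in each of the 20 tumours (columns), coloured by log2(FPKM + 1) minus the vector PBS mean of the gene, from -2 (blue) to 2 (red). Mutant anti-PD-1 replicates 1 and 2 are blue in all rows but 1 each, mutant PBS tumours are blue in at least 14 of the 17 rows below the line, and vector anti-PD-1 replicate 1 is uneven from row to row.

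Mutant against vector tumours under anti-PD-1 is the fourth comparison. All 45 log2 fold changes were negative, and 10 of 28 S phase and 6 of 17 mitotic genes fell, against 15.1% of all genes called lower. Dut fell by 0.75 (adjusted p = 0.00431) and was the single member without overlap, against 7.83% of all genes. Its vector anti-PD-1 levels were 45.8, 30.8, 29.5, 42.8 and 32.4 FPKM, all above the 28.4 FPKM of the highest mutant anti-PD-1 tumour. Ube2c, the enzyme that tags cyclin B for destruction, fell by 0.87 (adjusted p = 0.0154), from 88.9, 51.9, 54.5, 61.5 and 46.4 FPKM to 13.8, 26.1, 45.2, 45.8 and 51.5 FPKM. Ccna2, cyclin A2, fell by 0.64 (adjusted p = 0.0153), from 35.8, 41.6, 45.1, 52.5 and 45.2 FPKM to 15.1, 23.2, 38.6, 33.5 and 44.8 FPKM. Both ranges overlapped at the upper treated mutant tumours. All 9 T cell, 8 of 9 macrophage and 4 of 7 fibroblast markers rose in the same comparison, and their part in the result was not tested. Without the 3 outlying libraries 1 member fell, Bub1 (-0.43, adjusted p = 0.0402), against 11.6% of all genes.

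The difference between the 2 antibody responses was tested as an interaction. Dut was the single member past the threshold, with a difference of -0.96 ± 0.257 (SE, adjusted p = 0.0266), against 1.95% of all genes lower. A count of 1 among the members is near that background. It is the response of mutant tumours, -0.89, minus that of vector tumours, 0.07. The interaction was negative in 27 of 28 S phase genes (median -0.44) and in 13 of 17 mitotic genes (median -0.22). Without the 3 outlying libraries Dut had -0.54 (adjusted p = 0.12), and Ccne2 passed in its place (-0.72, adjusted p = 0.0409, against 0.608% of all genes). The medians were then -0.18 for S phase and 0.23 for mitotic genes.

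The mean difference between mutant and vector tumours over both treatments is given next. Of the 17 mitotic genes 8 fell and of the 28 S phase genes none did, against 11.1% of all genes called lower. The medians were -0.42 and -0.17, beside 0.01 for all genes. The mitotic median was -0.12 in number-only tumours and -0.23 without the 3 outlying libraries. All 9 T cell markers (median 1.58) and 8 of 9 macrophage markers (median 0.84) rose in the same comparison, and their part in the result was not tested. All 17 mitotic genes were negative here. Of the checkpoint and exit, Bub1 had a value of -0.60 ± 0.158 (adjusted p = 0.00987). Ube2c was at -0.59 and Cdc20, the activator of the ligase that ends mitosis, at -0.56 (adjusted p = 0.0243 and 0.042). Kif11 fell by 0.63 (adjusted p = 0.0192), Aurkb by 0.48, Ccna2 by 0.47, Ccnb2 by 0.39 and Cdk1 by 0.38. Mcm3 was the S phase gene nearest to the threshold, at -0.42 (adjusted p = 0.0528). It measured 39.8, 38, 44.2, 42.9 and 42.8 FPKM in vector PBS and 25, 32.4, 37, 39.8 and 38.7 FPKM in mutant PBS tumours. Without the 3 outlying libraries Mcm3 (-0.33, adjusted p = 0.0109) passed with 6 mitotic genes, against 15.7% of all genes, and among tumours with number-only identifiers Bub1 did alone (-0.37, adjusted p = 0.0332). The mean antibody difference over both tumour types gave 10 S phase and 2 mitotic genes lower, against 8.43% of all genes, with Orc6, Gins3, Ccne2 and Rrm1 first.

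**Figure D5:**
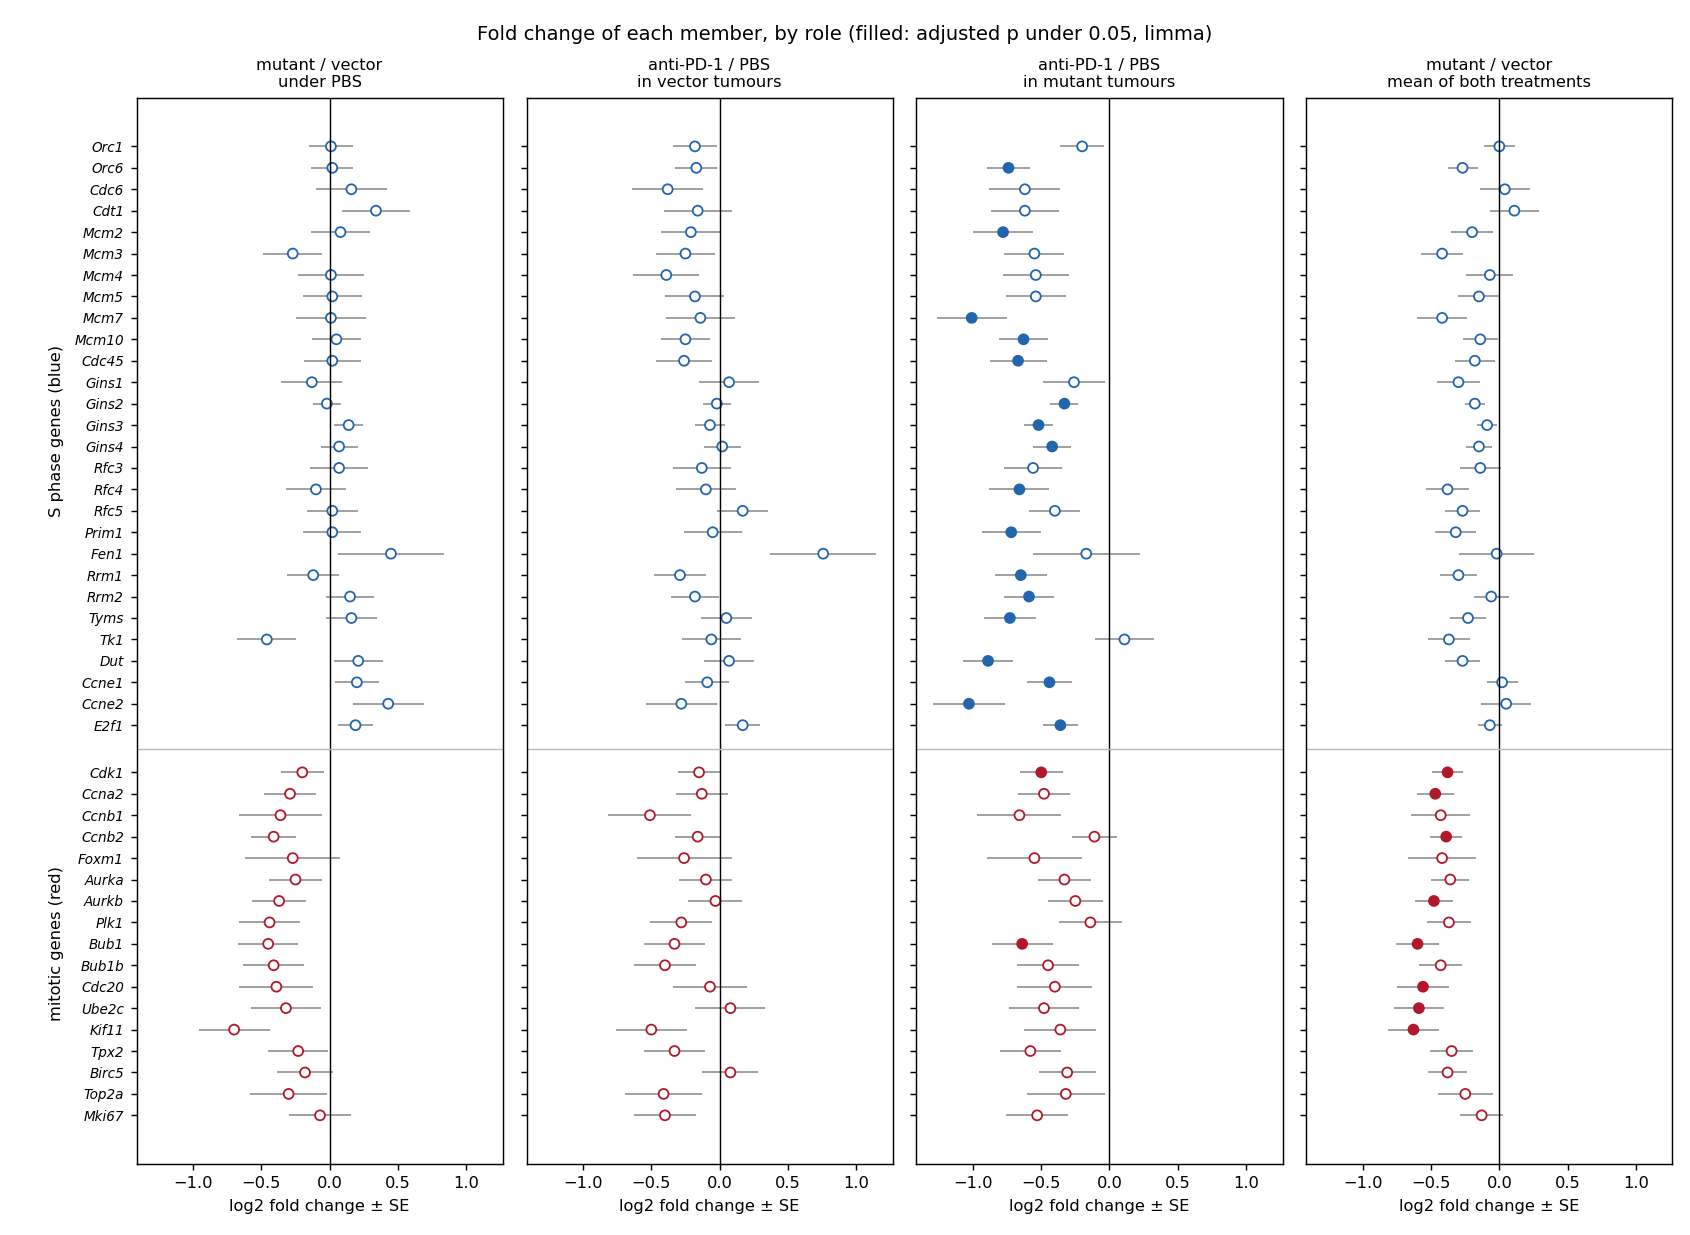
Log2 fold change with its SE (horizontal axis) of each member (vertical axis, ordered by role) in 4 comparisons, with filled points for an adjusted p under 0.05 by limma. In the first panel the 17 mitotic genes all lie left of 0, in the third 17 S phase genes and 2 mitotic genes are filled, and in the fourth 8 mitotic genes are filled.

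Further genes of the same pathways were taken as lists of 45 S phase and 52 mitotic genes. Under PBS, mutant against vector, 50 of 52 other mitotic genes had negative values (median -0.30) and 27 of 45 other S phase genes did (median -0.04), none past the threshold. Over both treatments 20 of the 52 and 8 of the 45 fell, against 11.1% of all genes called lower. Mcm6, the helicase subunit not among the members, led in S phase at -0.65 (adjusted p = 0.00187). Mcm6 measured 47, 49.3, 51.6, 50.4 and 50.1 FPKM in vector PBS and 25.4, 34.8, 37.9, 42.9 and 43.9 FPKM in mutant PBS tumours, without overlap, against 5.74% of all genes in that direction. With anti-PD-1 in mutant tumours 19 of the 45 and 9 of the 52 fell, against 14.6% of all genes, so the mitotic count is near the background. Those that fell include Recql4 (-0.91) and Mcm8 (-0.78) of S phase and Ndc80 (-0.78) of the kinetochore. Without the 3 outlying libraries these counts were 11 and 0, against 9.96%.

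Of 10 genes that drive cells through G1, 5 fell with anti-PD-1 in mutant tumours, against 14.6% of all genes, and 1 did without the 3 outlying libraries, against 9.96%. Ccnd1, cyclin D1, measured 226, 251, 209, 256 and 265 FPKM in mutant PBS and 38, 102, 182, 171 and 206 FPKM in mutant anti-PD-1 tumours. It fell by 1.10 (adjusted p = 0.00517) and had no overlap, against 11.8% of all genes in that direction. Myc, a growth-promoting transcription factor, measured 52, 32.7, 19, 23.3 and 22.5 FPKM against 8.86, 12.7, 17.1, 14.6 and 14.7 FPKM and fell by 1.01 (adjusted p = 0.00601). Of 18 tested brakes on the cycle 1 rose and 3 fell, against 15.9% of all genes called higher and 14.6% lower, so these counts do not stand apart from the background. Btg2, which slows proliferation, rose by 1.22 (adjusted p = 0.00328), from 5.13, 4.53, 6.67, 4.15 and 4.48 FPKM to 25.3, 15.7, 9.34, 11 and 7.86 FPKM, again with replicates 1 and 2 at the far end. Cdkn1a, the p21 inhibitor, fell by 0.80 (adjusted p = 0.0164), together with E2f4 and E2f8.

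Members differed in how far they varied between tumours of a group. Gins2 varied least, with a pooled within-group SD of 0.13 on the log2 scale and levels of 6.81 to 11.1 FPKM over the 20 tumours. Foxm1, the factor that switches on many mitotic genes, varied most, with an SD of 0.65 and levels of 6 to 34.6 FPKM. Fen1 came next with an SD of 0.64, and its highest level, 28.1 FPKM, was in vector anti-PD-1 replicate 1. It measured 10.1, 6.99, 12.3, 7.35 and 6.87 FPKM in vector PBS and 6.83, 6.66, 20.9, 22.1 and 11.2 FPKM in mutant PBS tumours, high in replicates 3 and 4 of the mutant, and did not follow the other S phase genes. Fen1 overlaps Tmem258 on the opposite strand over 156 bases, and Ube2c overlaps Tnnc2, a muscle gene listed at 0 to 213 FPKM, over 1662 bases. Whether the authors counted by strand is not given in the sources used here, so values of overlapping members are uncertain.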

How the data were processed

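Values were deposited as FPKM per gene, 1 file per tumour. The unit is read from the submitters' processing notes, which name Cuffnorm, STAR 2.5, FastQC, DESeq and mm10 without role or order, since the file headers name no unit. The sources used here give no annotation version, strandedness, multi-mapping rule or depth, so no counting error is available. Ensembl identifiers were matched to GENCODE vM21 symbols (55154 of 55335). The filter, 1 FPKM or more in 5 or more libraries, left 13982 genes, fitted as log2(FPKM + 1) with limma 3.58.1 (trend) in R 4.3.3, with 4 group means and a term for identifier style. P-values were adjusted by Benjamini-Hochberg over all genes tested, with a threshold of 0.05, for 7 contrasts. For single members, all 252 arrangements of 5 against 5 tumours gave an exact permutation p, two-sided. Tables and figures used Python 3.11.15, numpy 2.4.6, pandas 2.3.3 and matplotlib 3.10.9. The fit was checked on simulated data. Members and gene lists, the marker lists included, were chosen with earlier results of these data known. Values in every tumour were set to be given for 8 members (Mki67, Top2a, Ccnb1, Cdk1, Mcm2, Mcm5, Cdc6 and Rrm2) and, per kind and contrast, for up to 4 called members with the smallest p, or 1 where none was called. The text prints these values only in part, for some members and some groups. Other lists name up to 4 genes each. Members named beyond this were chosen after their values were seen. The 14 alternatives and the 20 fits that each leave out a library are given in the closing section.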

Additional observations from a re-analysis of the deposited data

Results flagged for a closer look

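Cdc6, the licensing factor, measured 0.945 FPKM in vector anti-PD-1 replicate 1, far below the other 4 tumours of its group (4.74 to 5.97 FPKM). Tk1 measured 5.15 FPKM in mutant PBS replicate 1, far below the other 4 (10.1 to 11.6 FPKM). In each case the gap to the nearest tumour, as a share of the range of the group, passed the critical value of 0.71 for 5 samples. Of 100 groups of values checked 2 did so, and chance alone marks about 1 in 20. The anti-PD-1 response of Dut differed between mutant and vector tumours by -0.96 on the log2 scale (adjusted p = 0.0266 by limma), the single case among 22 named members. Over 12 alternatives this adjusted p ran from 0.00558 to 0.12. Dut passed in 10 of them and in 14 of the 20 fits that leave out a library.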

How the results depend on the processing

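No paired analysis was possible because the replicate numbers follow accession order and pair no tumours. No called value reversed. Counts are members past the threshold, and the cause of each change was not tested. The share of all genes called changed between fits too. For mutant against vector under PBS it went from 0.923% lower and 0.529% higher to 6.87% and 4.88% without the 3 outlying libraries. These shares are not given here for every fit, so a change in count cannot be read as particular to the members. Anti-PD-1 in mutant tumours gave 19, and 9 with no identifier style term, 11 with muscle level as a covariate, 6 without the 3 outlying libraries, and 7 to 28 leaving out 1 library (7 without mutant anti-PD-1 replicate 1). Its S phase median of -0.58 became -0.89 in M-style tumours, -0.35 in number-only tumours and -0.27 without the 3 libraries. Its mitotic median of -0.45 became -0.89 in M-style tumours, -0.05 in number-only tumours and 0.04 without the 3. The only M-style tumours of the mutant anti-PD-1 group are replicates 1 and 2, both outlying libraries. For contrasts with this group, identifier style and the outlying libraries therefore cannot be told apart. Mutant against vector under PBS gave 0, and 9 with sample weights, 3 with the 2 groups alone and 7 without the 3 libraries. Under anti-PD-1 it gave 16, and 8 with no style term, 1 in number-only tumours, 10 with weights, 25 with quantile normalization, 1 with the 2 groups alone, 1 without the 3 libraries, and 4 to 25 leaving out 1 library (4 without mutant anti-PD-1 replicate 1). There the S phase median of -0.36 became -0.69 in M-style tumours, -0.11 in number-only tumours and -0.15 without the 3, and the mitotic median of -0.55 became -1.01 in M-style tumours, -0.08 in number-only tumours and -0.14 without the 3. The interaction gave 1, and 8 with weights, 3 with median-of-ratios scaling, 4 with quantile normalization and 0 to 5 leaving out 1 library. Its mitotic median of -0.22 became -0.63 in M-style tumours and 0.23 without the 3. The mean mutant difference gave 8, and 5 with no style term, 16 in M-style tumours, 1 in number-only tumours, 16 with quantile normalization and 6 to 17 leaving out 1 library. The mean antibody difference gave 12, and 5 with no filter, 2 with no style term, 5 in number-only tumours, 22 with weights, 4 with median-of-ratios scaling, 0 with muscle level as a covariate, 3 without the 3 libraries and 5 to 22 leaving out 1 library. Mcm7, Gins3, Orc6 and Dut passed with anti-PD-1 in mutant tumours under all 13 alternatives and all 20 fits that leave out a library. The count of 0 in vector tumours held under all 13 alternatives, and under PBS the S phase median ran from -0.01 to 0.11 and the mitotic median from -0.45 to -0.23 leaving out 1 library.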
